A study of Homo sapiens with 6 samples.

Results

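Histone lysine methyltransferases, which write methyl marks on histone tails, and histone lysine demethylases, which erase them, were examined in A549 cells kept with or without glucose. The members were all genes of the count table whose official symbol begins with KDM, KMT, SETD, PRDM or SMYD followed by a family number, together with SUV39H1, SUV39H2, EHMT1, EHMT2, EZH1, EZH2, NSD1, NSD2 and NSD3. This gave 65 genes of 19240, namely 46 writers and 19 erasers, all protein-coding. A549 is an established human lung carcinoma cell line. One group was cultured for 48 h in medium with 25 mM glucose and the other for 48 h in medium lacking glucose, with 3 libraries each and no genetic change in either group. Sequencing reads were counted from the 3' ends of transcripts. Nothing in the labels names the 3 libraries of a group as independent cultures; the p-values then reflect the spread among libraries alone, and that spread may be technical.

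Methylation of a histone lysine has no single meaning: on histone H3, lysine 4 (H3K4) is methylated at active promoters and enhancers, lysine 36 (H3K36) along transcribed genes, and lysines 9 and 27 (H3K9, H3K27) in silenced chromatin. Writers take the methyl group from S-adenosylmethionine, and most carry a catalytic SET domain. Most erasers are JmjC dioxygenases that consume oxygen and 2-oxoglutarate, a product of the tricarboxylic acid cycle, while KDM1A and KDM1B use flavin instead. These enzymes therefore depend on metabolites, although a transcript count says nothing of the activity of the protein or of the mark itself, and neither was measured here.

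Depth ranged from 6701004 to 14259943 gene counts per library in the cells with glucose and from 11086416 to 14060313 in those without, of which the members took 0.210% to 0.254%. Levels are in CPM, the count of a gene scaled by the TMM-adjusted size of its library. The first principal component over all tested genes (58.4% of the variance) separated the groups. Along the second (17.8%), replicate 1 with glucose scored 34.6 and the other libraries of its group -20.8 and -18.6; that library also held the fewest counts. Epithelial keratins were abundant in all 6 libraries, with a summed level of 5 epithelial markers of 3116 to 3892 CPM with and 1510 to 1818 CPM without glucose. Nearly all of that sum was KRT8 and KRT18, while EPCAM and CDH1 did not exceed 5.625 and 8.151 CPM in any library. Alveolar markers were nearly absent, with SFTPA1 and SFTPC at 0 counts. Summed fibroblast markers lay at 10.7 to 14.2 CPM with and 4.21 to 5.37 CPM without glucose, nearly all of it COL1A1, with DCN and COL1A2 at 0. Endothelial markers did not exceed 0.847 CPM in sum (VWF and KDR at 0). Leukocyte markers lay at 15.5 to 17.5 CPM with and 25.0 to 39.2 CPM without glucose, most of it CD68, a lysosomal protein, with CD3E at 0.

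Of the 65 members, 56 had enough counts to be tested. In the quasi-likelihood test of edgeR, with p-values adjusted by Benjamini-Hochberg over all 11886 genes tested, 6 members were higher and 4 were lower without glucose, which is 17.9% of those tested. Over all genes tested, 22.3% passed, 11.6% higher and 10.7% lower, so the share among members was not above that of the table as a whole. Among 39 tested writers 3 rose (PRDM16, SETD4, SETD6), 4 fell (EZH2, NSD2, EHMT2, SUV39H1) and 32 did not pass. Among 17 tested erasers 3 rose (KDM7A, KDM3A, KDM5B), 0 fell and 14 did not pass; 7 of the 17 had an unadjusted p under 0.05, and DESeq2 called 3 higher and 1 lower. The median log2 fold change was 0.06 for the writers and -0.26 for the erasers, beside 0.02 for all genes tested. As the members were chosen with earlier results of these data known, these counts and medians are a description of the list.

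The writers were also counted by target, with no test of the difference between the subsets. The 20 writers with a stated histone target had a median of -0.26, with 0 higher and 4 lower (20% called). The 19 tested writers among the PRDM, SMYD and remaining SETD genes and KMT2E, most of which have other or no settled histone targets, had a median of 0.18, with 3 higher and 0 lower (15.8% called). Neither share is above the 22.3% of all genes tested that passed in either direction. Each is above the share of all genes tested in its own direction, 10.7% lower and 11.6% higher. All 4 writers that fell are therefore among those listed under H3K9, H3K27 or H3K36. None of the writers listed under H3K4 or H4K20 passed in either direction.

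**Figure D1:**
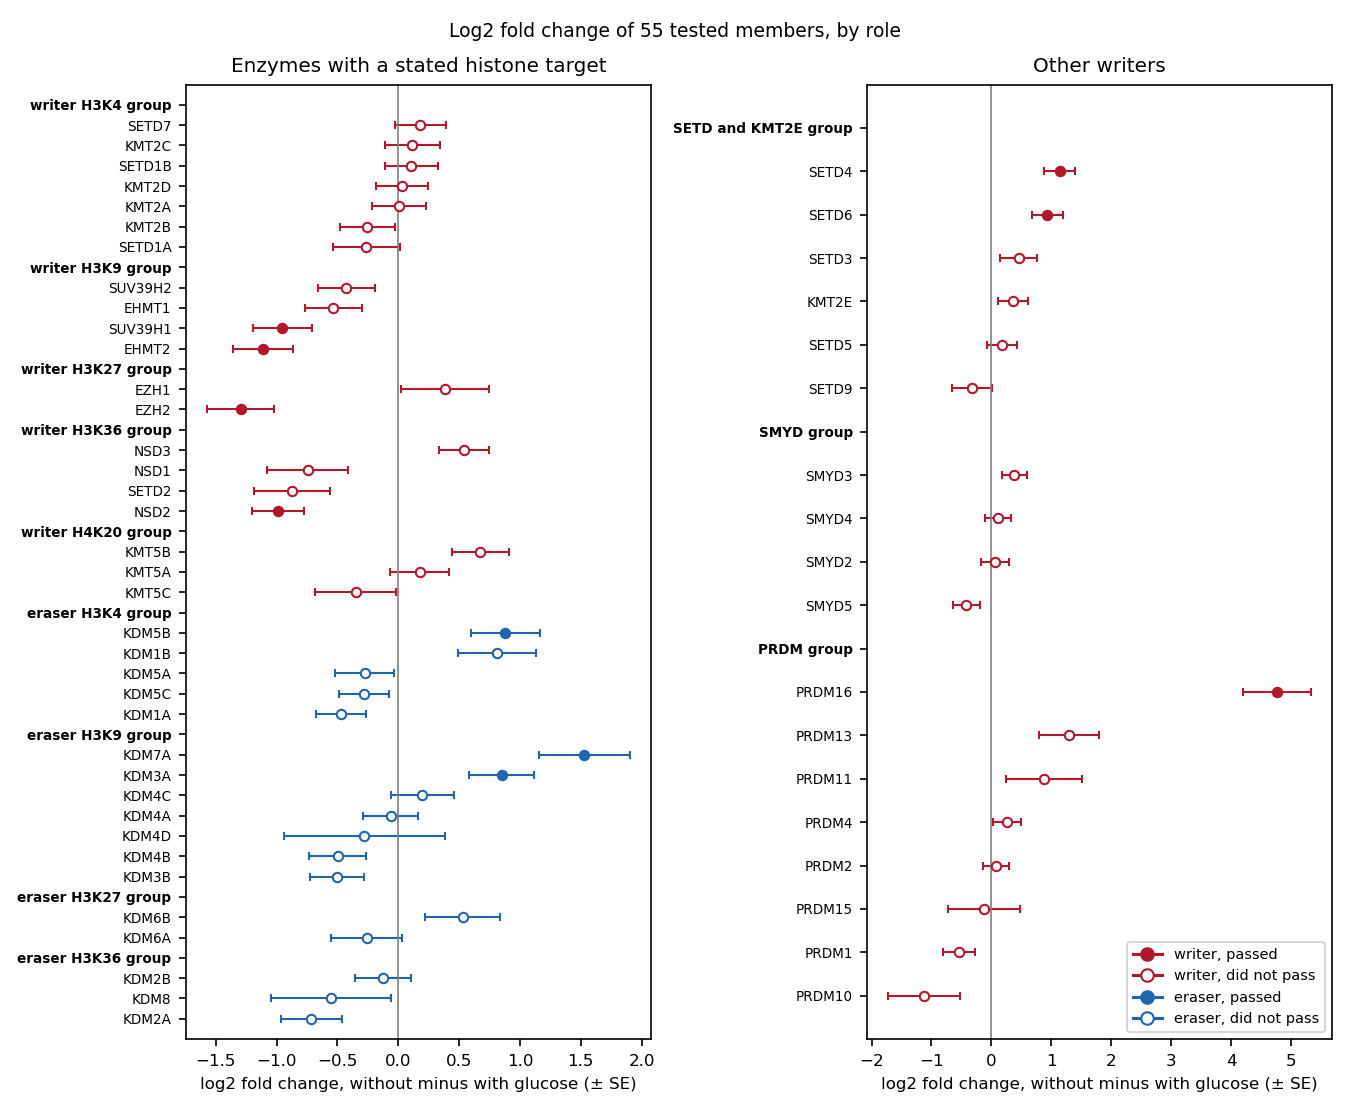
Log2 fold change without minus with glucose for 55 of the 56 tested members (points, bars ± SE), grouped by histone target on the left and by family on the right, with filled symbols for members that passed the edgeR test. EZH2, EHMT2, NSD2 and SUV39H1 lie left of 0, and KDM7A, KDM3A, KDM5B, SETD4, SETD6 and PRDM16 lie right of it.

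To show the promoters of members that moved, the 250 bases before the annotated transcript start are printed for a pair of writers that fell and for an eraser and a writer that rose. Sequences are those of RefSeq on GRCh38.p14, matched by gene identifier for 58 of the 65 members. The region is chr7:148884292-148884541 (minus strand) for EZH2, chr4:1871143-1871392 (plus strand) for NSD2, chr7:140176984-140177233 (minus strand) for KDM7A and chr16:58515267-58515516 (plus strand) for SETD6. Capitals mark, in EZH2 and NSD2, the CCAAT box (CCAAT), the core of E2F sites (TTCCCGC or TTGGCGC) and the cell cycle homology region (TTTGAA). In KDM7A and SETD6 they mark a form of the core of hypoxia response elements (ACGTG) and the composite site of C/EBP and ATF factors (TGATGNAA). All were read on both strands.
EZH2: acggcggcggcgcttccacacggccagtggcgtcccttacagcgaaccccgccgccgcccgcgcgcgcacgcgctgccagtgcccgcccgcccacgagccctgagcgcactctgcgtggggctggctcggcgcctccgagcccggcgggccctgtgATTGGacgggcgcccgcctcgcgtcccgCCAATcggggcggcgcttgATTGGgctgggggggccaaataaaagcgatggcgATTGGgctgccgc
NSD2: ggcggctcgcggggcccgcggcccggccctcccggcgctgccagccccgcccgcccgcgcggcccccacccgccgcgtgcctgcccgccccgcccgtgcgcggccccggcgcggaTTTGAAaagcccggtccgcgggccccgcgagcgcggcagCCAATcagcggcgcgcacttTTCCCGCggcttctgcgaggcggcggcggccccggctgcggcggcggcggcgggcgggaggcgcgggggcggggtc
KDM7A: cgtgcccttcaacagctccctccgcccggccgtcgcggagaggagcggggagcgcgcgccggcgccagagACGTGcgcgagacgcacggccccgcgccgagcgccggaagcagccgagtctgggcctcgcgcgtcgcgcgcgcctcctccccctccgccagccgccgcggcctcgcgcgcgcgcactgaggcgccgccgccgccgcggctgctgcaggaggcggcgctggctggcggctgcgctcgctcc
SETD6: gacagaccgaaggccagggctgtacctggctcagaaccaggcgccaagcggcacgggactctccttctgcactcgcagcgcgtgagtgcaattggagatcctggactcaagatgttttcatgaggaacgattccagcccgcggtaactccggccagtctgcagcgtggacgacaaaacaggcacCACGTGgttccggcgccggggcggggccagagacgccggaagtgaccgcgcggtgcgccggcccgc
The EZH2 window holds 4 CCAAT boxes, and that of NSD2 holds a CCAAT box, a TTTGAA and a TTCCCGC. The windows of EHMT2 and SUV39H1 hold none of the CCAAT, E2F and TTTGAA letters, and that of EHMT2 holds ACGTG. The KDM7A window holds ACGTG once, 180 bases before the start, and the SETD6 window holds it as the palindrome CACGTG, which matches on both strands. Letters marked for one pair also stand in members that moved the other way: SETD6, which rose, holds a CCAAT 160 and a TTGGCGC 210 bases before the start, left in lower case, and KDM3A, which rose, holds CCAAT 128 and 75 bases before it. KDM3A, KDM5B and SETD4, which all rose, hold no ACGTG, the only form of the hypoxia response core that was searched. Over the 27305 promoters of the table, 33.0% hold CCAAT, 5.59% TTCCCGC, 2.63% TTGGCGC, 13.6% TTTGAA, 18.7% ACGTG and 3.19% TGATGNAA. Among the 58 members 21 hold CCAAT, 4 TTCCCGC, 2 TTGGCGC, 3 TTTGAA, 14 ACGTG and 0 TGATGNAA. CCACG, the end of the endoplasmic reticulum stress element, was searched as well and stands in 33.3% of all promoters and in 26 of the 58. A match describes letters in the window and is not a bound site.

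EZH2 (Entrez 2146), the main catalytic subunit of Polycomb repressive complex 2 (PRC2), which writes H3K27 methylation, had levels of 45.8, 93.5 and 94.9 CPM in replicates 1 to 3 with glucose and of 30.4, 28.4 and 36.7 CPM without it. All 3 libraries without glucose lay below all 3 with glucose, although replicate 1 with glucose was near them. The mean went from 78.1 ± 28.0 to 31.8 ± 4.31 CPM (SD, n = 3 per group). The log2 fold change was -1.30 ± 0.27 (SE), with an edgeR adjusted p of 0.00548. EZH1, the relative of EZH2 that is typical of non-dividing cells, had 3.53, 9.50 and 10.1 CPM with and 13.4, 7.11 and 10.3 CPM without glucose. Its groups overlapped, and it did not pass (0.38 ± 0.36). EZH1 was also lowest in replicate 1 with glucose, so the log2 ratio of EZH2 to EZH1 within a library was 3.24 to 3.70 with glucose and 1.19 to 1.996 without it. The mean of that ratio differed by -1.74 on the log2 scale, a pair chosen after its values were seen and not tested.

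Of 10 tested partners of EZH2 in PRC2, 2 fell, 0 rose and 8 did not pass. That is 20% called, all lower. Over all genes tested, 22.3% passed in either direction and 10.7% were lower. EED, the subunit that reads the mark and is needed for activity, went from 35.0 ± 8.16 to 15.4 ± 2.35 CPM (log2 fold change -1.18, edgeR adjusted p 0.00357). PHF19, an accessory subunit that recruits the complex to chromatin, had a log2 fold change of -1.04. SUZ12, the other core subunit, did not pass (log2 fold change -0.29), and neither did MTF2 (-0.50). Both PRC2 partners that fell did so under each alternative setting and with any library left out.

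EHMT2 (Entrez 10919), also known as G9a, which writes mono- and dimethylation of H3K9, had 32.1, 38.1 and 41.1 CPM with glucose and 24.1, 13.8 and 13.8 CPM without it. The groups did not overlap, and replicate 1 without glucose lay nearest to the other group. Its mean went from 37.1 ± 4.62 to 17.3 ± 5.91 CPM (SD, n = 3 per group), a log2 fold change of -1.11 ± 0.25 with an edgeR adjusted p of 0.00776. An antisense gene, EHMT2-AS1, overlaps EHMT2, and whether the authors' counting used strand is not given in the sources used here. EHMT1, which pairs with EHMT2 in one enzyme complex, had 52.8, 53.3 and 52.0 CPM with and 27.2, 31.8 and 49.99 CPM without glucose. EHMT1 did not pass (log2 fold change -0.53 ± 0.24, edgeR adjusted p 0.124), but it did on removal of the third glucose-free library (log2 fold change -0.84, adjusted p 0.0334).

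SUV39H1 (Entrez 6839), which writes H3K9 trimethylation in pericentric heterochromatin, had 13.4, 11.4 and 12.1 CPM with glucose and 5.97, 5.74 and 7.29 CPM without it. The libraries of each group lay close together and the groups were well apart. Its mean went from 12.3 ± 1.01 to 6.33 ± 0.836 CPM (SD, n = 3 per group), a log2 fold change of -0.95 ± 0.24 with an edgeR adjusted p of 0.0142. SUV39H2, its close relative, had 20.3, 15.9 and 16.3 CPM with and 14.9, 13.9 and 10.2 CPM without glucose and did not pass (-0.43 ± 0.23). The 4 members listed under H3K9 (SUV39H1, SUV39H2, EHMT1 and EHMT2) thus each had groups that did not overlap, all lower without glucose. Of all genes tested, 19.4% had lower groups that did not overlap and 40.4% had groups apart in either direction. The H3K9 methyltransferases outside the name rule, SETDB1 and SETDB2, did not pass, with log2 fold changes of 0.51 and 1.30 (edgeR adjusted p 0.0691 for SETDB2). SETDB2 rose with DESeq2 (0.0377), when low counts were not filtered (0.0395) and on removal of the third glucose-free library (0.0408).

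Proteins that read H3K9 methylation or act with it were lower in 5 of 8 cases, with 0 higher. Over all genes tested, 10.7% were lower. The other 3 proteins did not pass, and 2 of them had positive log2 fold changes. UHRF1, which links H3K9 methylation to DNA methylation during replication, went from 53.7 ± 14.96 to 19.4 ± 1.58 CPM. CBX1 and CBX5, the heterochromatin proteins HP1 beta and HP1 alpha, had log2 fold changes of -0.82 and -0.66, TRIM28, a corepressor that recruits them, -0.80, and DAXX, a histone chaperone, -0.66. CBX3, the third heterochromatin protein, had a log2 fold change of -0.03. Of these calls that of UHRF1 held in every setting. CBX1 did not pass without replicate 2 with glucose (adjusted p 0.0601), and only 2 readers (UHRF1 and CBX1) fell on removal of the third glucose-free library, where TRIM28 had an adjusted p of 0.0506. With any one of the other libraries left out 3 or 4 readers fell, and 3 fell with a replicate block. On removal of the second glucose-free library, 1 reader passed as higher.

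NSD2 (Entrez 7468), which writes H3K36 dimethylation, had 123, 120 and 176 CPM with glucose and 72.6, 69.4 and 69.1 CPM without it. The 3 libraries without glucose were nearly equal and all lay below the other group. Its mean went from 139.6 ± 31.7 to 70.3 ± 1.96 CPM (SD, n = 3 per group), a log2 fold change of -0.99 ± 0.21 with an edgeR adjusted p of 0.00597. NSD3, a relative with the same target, had 87.7, 98.7 and 92.4 CPM with and 133, 109.7 and 162.5 CPM without glucose. The groups of NSD3 were apart in the opposite direction, but it did not pass (0.54 ± 0.21, adjusted p 0.0783). The log2 ratio of NSD2 to NSD3 within a library was 0.28 to 0.93 with glucose and -1.23 to -0.66 without it. This pair too was chosen after its values were seen and was not tested. The same ratio overlapped between groups for EHMT2 to EHMT1, SUV39H1 to SUV39H2 and KDM5B to KDM5A. It did not for KDM3A to KDM3B and KDM1B to KDM1A.

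The results for NSD1 and SETD2, which write di- and trimethylation of H3K36, depended on 1 library, and that for SETD2 also on the method. NSD1 had 33.3, 99.4 and 82.7 CPM with and 53.0, 42.2 and 33.6 CPM without glucose, and SETD2 had 32.8, 79.1 and 90.0 CPM with and 42.0, 36.5 and 31.9 CPM without glucose. In both, replicate 1 with glucose lay among or below the libraries without glucose. In the edgeR fit reported, with all libraries, neither passed (NSD1 -0.75 ± 0.33, SETD2 -0.88 ± 0.31). Without replicate 1 with glucose both fell, NSD1 with a log2 fold change of -1.09 (edgeR adjusted p 0.00792) and SETD2 with -1.20 (adjusted p 0.00256). With all libraries kept, SETD2 also passed with DESeq2, with library totals as scaling and when low counts were not filtered. The part of that library's other properties in these values was not tested.

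The H3K4 writers stayed within a narrow range. The 7 members, KMT2A to KMT2D of the MLL family, SETD1A, SETD1B and SETD7, had log2 fold changes between -0.26 and 0.18, and none passed in the edgeR test (0 of 7 with an unadjusted p under 0.05, and 0 by DESeq2). KMT2A, the MLL1 enzyme, had 106, 117 and 119.5 CPM with and 146, 111.5 and 86.9 CPM without glucose, so that its libraries without glucose lay on both sides of the other group. KMT2D, the main enhancer monomethyltransferase with KMT2C, had 20.3, 15.8 and 16.2 CPM with and 19.7, 15.99 and 17.6 CPM without glucose. KMT2C has near-identical pseudogenes, so its count is uncertain.

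Except for SETD7, these enzymes work in complexes known as COMPASS. Of 11 other subunits of those complexes, some common to all and some particular to a few, 5 fell and 0 rose. That is 45.5% called, beside 22.3% of all genes tested, of which 10.7% fell. PAGR1, a subunit of the KMT2C and KMT2D complexes, went from 92.2 ± 9.54 to 46.9 ± 5.99 CPM (log2 fold change -0.98, edgeR adjusted p 0.00478). HCFC1 had a log2 fold change of -1.04, MEN1, which encodes menin, -0.78, WDR82 -0.68 and WDR5 -0.62. PAGR1 passed in every setting, while HCFC1 was lost in 2 settings (edgeR adjusted p up to 0.0576) and MEN1 in 5 (up to 0.0768). The calls for WDR82 and WDR5 were lost whenever any library was left out and with a replicate block, and 1 to 3 COMPASS subunits fell when 1 library was left out. The difference between the catalytic and the other subunits was not tested.

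The 3 members listed as writers of histone H4 lysine 20 methylation did not pass. KMT5B, which writes di- and trimethylation, had 38.6, 49.1 and 59.6 CPM with and 71.6, 65.9 and 98.1 CPM without glucose. Its groups did not overlap, and its log2 fold change of 0.67 ± 0.23 had an edgeR adjusted p of 0.0562; it passed with no filter on low counts (0.0466) and with DESeq2 (0.0402). KMT5A, the monomethyltransferase that is degraded in S phase, had a log2 fold change of 0.18 and overlapping groups; it has processed pseudogenes, so its count is uncertain. KMT5C had -0.35.

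**Figure D2:**
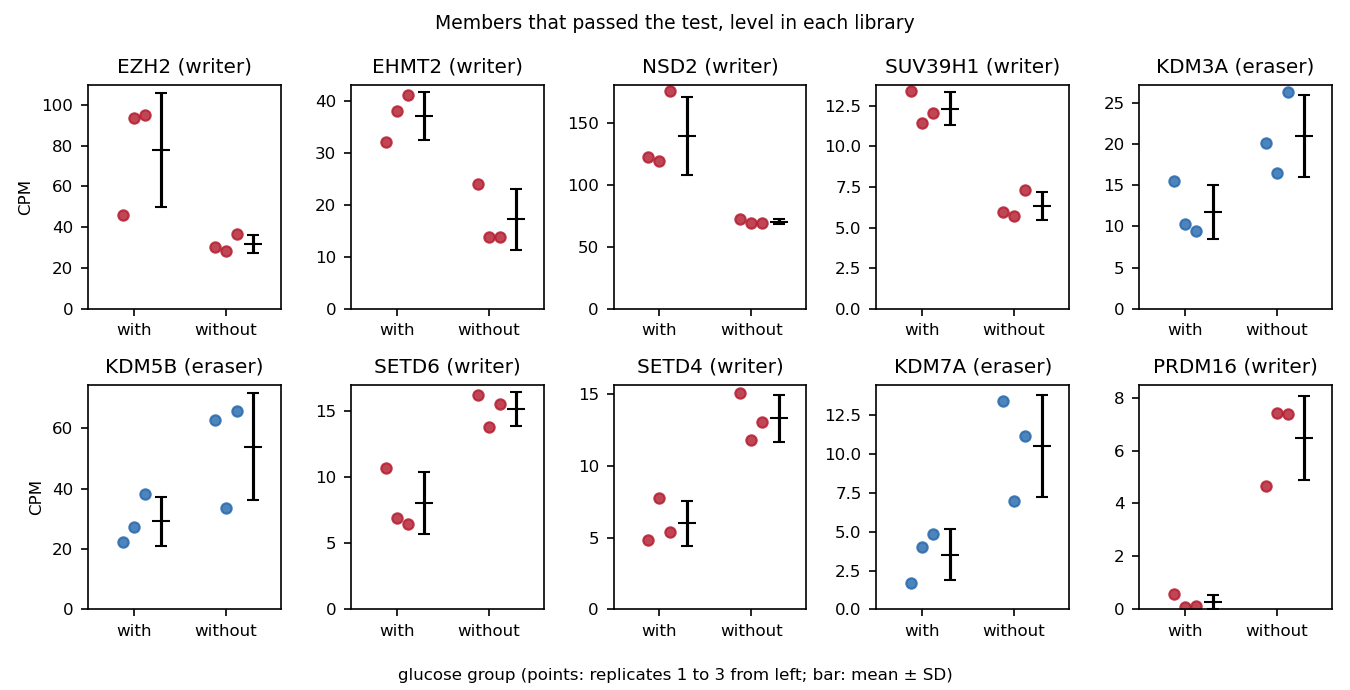
Level in CPM (axes from 0) of the 10 members that passed the edgeR test, with 1 point per library, replicates 1 to 3 from left to right in each glucose group, and the mean ± SD beside them (n = 3). KDM5B is the one whose groups overlap, and in EZH2 the first library with glucose lies well below the other two.

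Among the erasers, KDM7A (Entrez 80853), a JmjC enzyme that removes dimethyl marks from H3K9 and H3K27 and is known from earlier work to be induced when cancer cells are starved of nutrients, had 1.69, 4.03 and 4.85 CPM with glucose and 13.5, 6.96 and 11.2 CPM without it. The groups did not overlap. The mean went from 3.53 ± 1.64 to 10.5 ± 3.30 CPM (SD, n = 3 per group), a log2 fold change of 1.53 ± 0.37 or 2.88-fold, with an edgeR adjusted p of 0.0123. On removal of the first glucose-free library the adjusted p was 0.0502.

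KDM3A (Entrez 55818), which removes mono- and dimethyl marks from H3K9 and is a known target of hypoxia-inducible factors, had 15.5, 10.3 and 9.49 CPM with and 20.2, 16.4 and 26.4 CPM without glucose. Here the lowest library without glucose lay just above the highest with it. The log2 fold change was 0.85 ± 0.26 with an edgeR adjusted p of 0.0371. The call was lost without replicate 2 (0.119) or 3 (0.135) with glucose, on removal of replicate 1 (0.0678) or 3 (0.153) of the glucose-free libraries, and with a replicate block (0.0575). KDM3B, the nearest relative, had 49.3, 67.9 and 70.4 CPM with and 50.3, 46.9 and 35.5 CPM without glucose, overlapping groups and a log2 fold change of -0.50 ± 0.22 that did not pass.

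KDM5B (Entrez 10765), which removes H3K4 methylation, had 22.2, 27.2 and 38.2 CPM with glucose and 62.7, 33.5 and 65.6 CPM without it. It passed the test (log2 fold change 0.88 ± 0.28, edgeR adjusted p 0.0420), yet replicate 2 without glucose lay below replicate 3 with glucose. The call was lost without replicate 1 (0.112) or 2 (0.127) with glucose and, among the libraries without glucose, on removal of replicate 1 (0.124) or 3 (0.161). Its relatives KDM5A and KDM5C had log2 fold changes of -0.27 and -0.28 and did not pass, and KDM5D, on the Y chromosome, had a count of 0 in all 6 libraries. KDM5A had the highest count of any member, with 187 to 307 CPM with and 154 to 240 CPM without glucose.

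The flavin-dependent H3K4 erasers differed in sign. KDM1A, known as LSD1, had 101, 100.1 and 100.5 CPM with and 63.8, 90.0 and 64.1 CPM without glucose, and its groups did not overlap, but it did not pass (-0.47 ± 0.21, adjusted p 0.120). KDM1B had 3.11, 5.86 and 8.37 CPM with and 10.4, 11.1 and 9.57 CPM without glucose and did not pass either (0.81 ± 0.32, adjusted p 0.0892). Without replicate 3 with glucose, KDM1B passed (log2 fold change 1.18, adjusted p 0.0413). Among 10 partners of KDM1A 1 rose and 2 fell, 30% called beside 22.3% of all genes tested. ZMYM2 rose by 0.71, ZMYM3 fell by 0.69 and RCOR2 fell by 1.89 on the log2 scale. Each of these 3 calls was lost in at least 6 of the alternative settings (edgeR adjusted p up to 0.148).

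The other erasers did not pass. KDM4A, KDM4B, KDM4C and KDM4D, which act on H3K9 and H3K36, had log2 fold changes of -0.06, -0.50, 0.20 and -0.28. The H3K27 erasers KDM6A and KDM6B, known as UTX and JMJD3, had -0.26 and 0.53 with overlapping groups. KDM2A, a CpG-binding eraser of H3K36 methylation, had 126, 114 and 74.0 CPM with and 79.1, 51.1 and 61.2 CPM without glucose. It narrowly failed (-0.71 ± 0.25, edgeR adjusted p 0.0569) and fell with DESeq2 (0.0257), with library totals as scaling (0.0329), when low counts were not filtered (0.0405), without replicate 3 with glucose (0.0323) and on removal of the first glucose-free library (0.0440). KDM2B and KDM8 had -0.13 and -0.55. Of 7 tested demethylases or JmjC proteins outside the name rule, RIOX2 rose by 0.80 and HR fell by 1.07 on the log2 scale. That is 28.6% called, beside 22.3% of all genes tested. The calls of RIOX2 and HR were both lost on removal of replicate 1 with glucose or of replicate 1 or 3 of the glucose-free libraries.

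**Figure D3:**
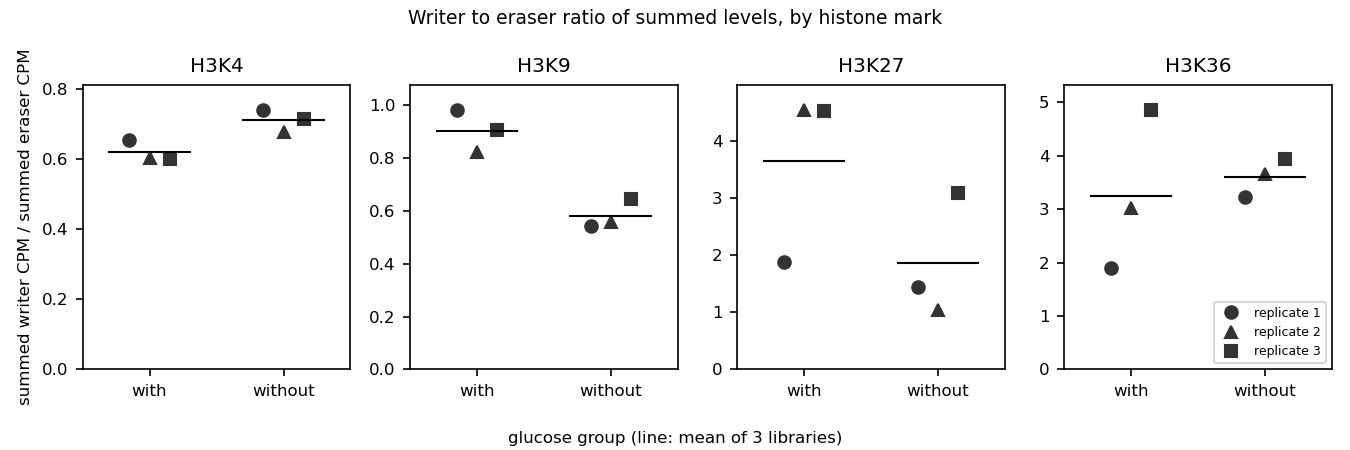
Ratio of the summed level of writers to the summed level of erasers of the same mark in each library, each enzyme under 1 mark (axes from 0, symbols for replicates 1 to 3, line for the group mean). For H3K9 the ratio is 0.823 to 0.980 with glucose and 0.543 to 0.645 without it; for H3K27 and H3K36 the groups overlap.

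Writers and erasers of the same mark were set against each other by summing their levels within each library, which gives abundant members more weight. Each enzyme was counted under 1 mark, KDM7A and KDM4A to KDM4D under H3K9. The H3K9 writers summed were SUV39H1, SUV39H2, EHMT1 and EHMT2, without SETDB1, SETDB2 or any PRDM gene. For H3K9, summed writers went from 119.6 ± 1.62 to 72.9 ± 8.05 CPM, while summed erasers were at 133 ± 11.7 and 125 ± 7.77 CPM (SD, n = 3 per group). The H3K9 ratio of writers to erasers was thus 0.902 ± 0.0789 with glucose and 0.582 ± 0.0555 without it, with no overlap. For H3K4 the ratio moved the other way, from 0.620 ± 0.0301 to 0.711 ± 0.0308, also with no overlap, as summed erasers went from 498 ± 44.2 to 436 ± 41.7 CPM and summed writers from 308 ± 15.5 to 310.0 ± 32.3 CPM. The H3K27 ratio, 1.89, 4.53 and 4.51 with glucose and 1.44, 1.05 and 3.08 without it, overlapped between groups, as did that of H3K36 (1.90 to 4.85 with, 3.23 to 3.93 without). Both still overlapped with KDM7A added to the H3K27 erasers (1.77 to 3.85 with, 0.869 to 1.78 without) and KDM4A to KDM4D added to those of H3K36 (1.38 to 3.14 with, 2.12 to 2.31 without). These sums are descriptions, with no test, because the members were chosen with results known.

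Of the remaining SETD genes, SETD4 (Entrez 54093), a methyltransferase linked to quiescent stem cells, had 4.80, 7.78 and 5.41 CPM with and 15.1, 11.8 and 13.0 CPM without glucose. The groups lay well apart, and the log2 fold change was 1.14 ± 0.26 with an edgeR adjusted p of 0.00924. SETD6 (Entrez 79918), which methylates the NF-kB subunit RELA, had 10.7, 6.91 and 6.47 CPM with and 16.2, 13.8 and 15.5 CPM without glucose, a log2 fold change of 0.93 ± 0.26 and an adjusted p of 0.0218. SETD6 did not pass without replicate 2 (0.0806) or 3 (0.0915) with glucose, nor when replicate 1 (0.0591) or 3 (0.0638) of the glucose-free libraries was removed. It overlaps CNOT1 in the annotation, which did not pass (log2 fold change 0.18). KMT2E, which binds H3K4 methylation and is thought to lack activity, was among the members of highest count, with 112 to 189 CPM with and 144 to 239 CPM without glucose. SETD3, an actin histidine methyltransferase, SETD5, SETD9 and KMT2E had log2 fold changes of 0.45, 0.18, -0.33 and 0.36 and did not pass.

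The PRDM genes, zinc finger regulators with a SET-like domain that is inactive in most of them, held the largest fold change of the tested members. PRDM16 (Entrez 63976), a regulator of brown fat and stem cell identity, had 4, 1 and 2 counts with glucose and 49, 97 and 100 counts without it, or 0.565, 0.0960 and 0.141 CPM against 4.64, 7.42 and 7.36 CPM. Pooled over libraries this is 7 counts against 246, a ratio of 30.0 relative to the scaled library totals (exact 95% interval 14.3 to 75.3, counting error only). The gene passed with an edgeR adjusted p of 1.82e-04 and in every alternative setting. It met the filter on low counts only through the libraries without glucose, the group in which it was high. Its p-value and its rank among the tested members carry that selection. Without replicate 1 with glucose, 3 counts remained there and the ratio was 54.3 (18.4 to 265). With any other library left out the ratio was 23.1 to 33.5. Several annotated genes overlap PRDM16, among them lncRNA genes and LOC124903827, and none has counts of its own. The part of their reads in the count of PRDM16 was not tested.

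The other PRDM genes did not pass or were too low to test. PRDM13 had a log2 fold change of 1.30 ± 0.49 with groups that did not overlap (edgeR adjusted p 0.0776), while PRDM10 had -1.12 ± 0.59. PRDM1, known as BLIMP1, had -0.54, and PRDM2 and PRDM4 had 0.08 and 0.27. PRDM11 had 0.88 ± 0.64, and passed without replicate 1 with glucose (log2 fold change 2.04, adjusted p 0.0298), while PRDM15 had -0.13. PRDM8 had 0 counts with glucose and 12 without (4, 7 and 1 in replicates 1 to 3). Against a floor of 3 counts over the group with glucose, this is 3.41-fold higher, a value without an interval. PRDM12 had 6 and 23 counts and PRDM6 had 3 and 8, ratios of 3.27 (exact 95% interval 1.29 to 9.81) and 2.27 (0.546 to 13.3). These intervals pool the libraries of a group and cover counting error only. The groups of PRDM12 overlapped, at 0 to 0.352 CPM with and 0.306 to 0.883 CPM without glucose. Those of PRDM6 did not, on 11 counts in all. PRDM7, PRDM9 and PRDM14, which act in germ cells or pluripotent cells, had a count of 0 throughout, as did the testis gene KDM4E. Of the SMYD genes, SMYD2, SMYD3, SMYD4 and SMYD5 had log2 fold changes of 0.06, 0.39, 0.10 and -0.42 and did not pass, and SMYD1, of muscle, had 1 count in all.

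**Figure D4:**
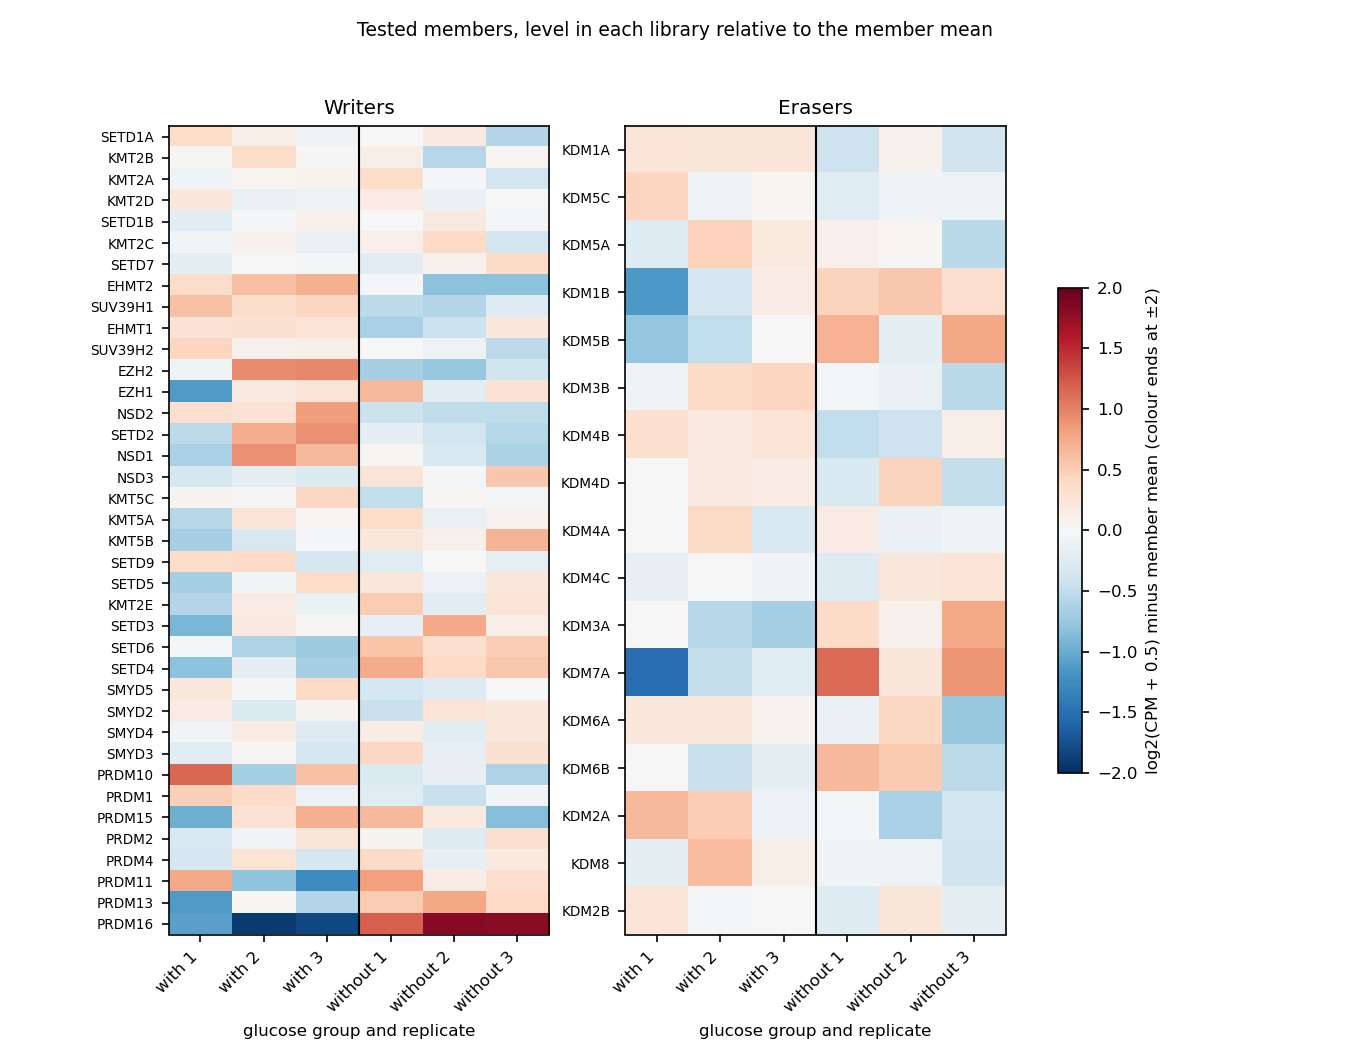
Level of 55 of the 56 tested members in each library, as log2(CPM + 0.5) minus the member's mean over the 6 libraries (red above, blue below, colour ends at 2 either side), with writers on the left and erasers on the right. EZH2, SETD2 and NSD1 are high in replicates 2 and 3 with glucose, and PRDM16 is high in the 3 libraries without glucose.

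EZH2, NSD2, EHMT2 and SUV39H1 moved beside the genes of cell division. All 20 genes of a list of S phase and mitosis fell, beside 10.7% of all genes tested, with a median log2 fold change of -1.86. All of them, or all except TOP2A, fell in each setting. PCNA, the sliding clamp of replication, went from 443 ± 61.0 to 115.9 ± 25.4 CPM, and RRM2, of ribonucleotide reductase, from 123.9 ± 8.50 to 27.7 ± 2.78 CPM. The part of these genes' shift in the lower level of the 4 writers was not tested. The members whose log2 levels followed EZH2 most closely over the 6 libraries were SETD2, NSD2 and EHMT2, with Pearson r of 0.884, 0.881 and 0.832, given as a description because the points form 2 groups.

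Lists of genes that supply the cofactors differed in their counts. In the methyl donor cycle 1 of 10 rose and 0 fell, 10% beside 22.3% of all genes tested. MAT2A, which makes S-adenosylmethionine, had 167 ± 33.6 and 169 ± 9.08 CPM (log2 fold change 0.02), and AHCY, which removes its inhibitory product, had -0.32 and did not pass. ADK, which clears the adenosine formed in that step, rose by 0.61 on the log2 scale (edgeR adjusted p 0.0396); the call was lost with library totals as scaling, with a replicate block and on removal of each library except the second glucose-free one. In the list of 2-oxoglutarate supply and its competing metabolites 1 of 15 rose and 4 fell, 33.3% beside the same 22.3%. IDH1, the cytosolic isocitrate dehydrogenase, which makes 2-oxoglutarate, rose from 83.0 ± 6.16 to 213.5 ± 42.7 CPM (edgeR adjusted p 9.02e-04). SDHA, of succinate dehydrogenase, fell by 1.05 on the log2 scale, and both IDH1 and SDHA passed in every setting. FH and IDH3A had log2 fold changes of -0.63 and -0.83, calls that were lost in 7 and 6 settings, and 1 or 2 genes of that list fell with any library left out.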

How the data were processed

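The members and the gene lists were chosen with earlier results of these data known. The deposited table holds raw counts per Entrez gene for 6 libraries, for which the submitters' processing notes name STAR, HTSeq and hg19. Their versions, the annotation and the strand setting: not given in the sources used here. The libraries are strand-specific per the labels' protocols. Per the labels' protocols, cDNA was primed with barcoded oligo-dT, and no molecular identifiers are mentioned, so PCR copies count as reads and intervals cover counting error only. The 5 summary rows of HTSeq were left out: reads outside genes made up 32.8% to 36.5% of a library, multiply aligned reads 18.4% to 22.2%, ambiguous ones 0.369% to 0.419%. Of 19240 genes, 19178 matched a symbol in the RefSeq table of GRCh38.p14; the rest held 0.00722% of gene counts.

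Groups were taken from the labels and compared in edgeR 4.0.16 by its quasi-likelihood F test (two-sided, TMM scaling, filterByExpr with a minimum count of 10, no covariate), with Benjamini-Hochberg adjustment over all genes tested and a threshold of 0.05. Each SE was approximated from the log2 fold change and the root of F. The edgeR script was checked on simulated data. The chi-square statistic per degree of freedom between libraries of a group was 22.1 to 57.3, so none were merged for the tests. Counts were pooled only for the ratios of PRDM6, PRDM8, PRDM12 and PRDM16. Their intervals, where given, leave out this spread between libraries. By rule, members that passed were named with the value in each library, with their relatives, the members of highest level and those at 0 counts; of each other list, up to 5 with the smallest p. SUZ12, CBX3, SETDB1, MAT2A, AHCY and PCNA fall outside that rule and were chosen after their values were seen. Alternatives were size factors of DESeq2 1.42.0, library totals, the DESeq2 test, no filter, a mean of at least 20 counts, a replicate block and leaving out each library. Pairs of relatives, groups that do not overlap, and erasers counted under several marks were added after the data were seen. The values of a few genes, counted in their lists, are not reported here.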

Additional observations from a re-analysis of the deposited data

How the results depend on the processing

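The numbers of writers called (3 higher, 4 lower) were the same under DESeq2 size factors, under a minimum mean of 20 counts and in the replicate block fit. They were 3 and 5 with library totals, and 4 and 5 both with the DESeq2 test and with no filter. With the writers limited to those with a stated target, 0 were higher and the median log2 fold change was -0.26. By groups that do not overlap, a rule added after the data were seen, 6 writers were higher and 6 lower, and 3 erasers were higher and 3 lower. That is 30.8% of the tested writers and 35.3% of the tested erasers, beside 40.4% of all genes tested. The number of lower erasers was 1 (KDM2A) with library totals, with the DESeq2 test and with no filter on low counts. Leaving out 1 library at a time gave 2 to 4 higher and 4 to 6 lower writers, 0 to 3 higher and 0 to 1 lower erasers, and medians of -0.03 to 0.06 for writers and -0.3241 to -0.0458 for erasers; 0 erasers were higher on removal of the first glucose-free library, and 1 on removal of the third or of replicate 2 with glucose. With a replicate block 2 erasers were higher, since KDM3A had an adjusted p of 0.0575, and it changed the call of no other member. The labels do not say that the numbers pair libraries, and same-numbered libraries did not deviate together (r of -0.298, -0.140 and 0.0420), so the block is no evidence of a weaker effect. EZH2, NSD2, EHMT2, SUV39H1, SETD4 and PRDM16 passed in all 12 alternatives (highest adjusted p 0.0437). No called member changed sign. Members near 0 that passed in no setting did: KMT2A (0.01 as reported) had -0.01221 with DESeq2 size factors, -0.05148 with library totals, -0.01237 with the DESeq2 test and -0.02295 with the replicate block, and KMT2D had -0.03691 with library totals. On leaving out 1 library the log2 fold change ranged from -0.2192 to 0.1364 for KDM4A, -0.5684 to 0.3527 for PRDM15, -0.08565 to 0.2319 for PRDM2, -0.05536 to 0.4466 for SETD5, -0.08751 to 0.2485 for SMYD2, -0.001525 to 0.2239 for SMYD4, -0.2047 to 0.1679 for KMT2A, -0.09603 to 0.2925 for KMT2C, -0.05356 to 0.1433 for KMT2D and -0.02637 to 0.3594 for KMT5A; the cause was not tested. Over all genes, leaving out 1 library gave 858 to 1292 higher and 781 to 1232 lower genes beside 1376 and 1276. With few counts, PRDM6, PRDM8, PRDM12 and SMYD1 were not tested in the fit reported.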
